A study of Mus musculus with 14 samples.

Results

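The angiopoietin and vascular growth genes are 10 genes that blood vessels use to grow, to hold together and to respond to injury: the ligands Angpt1, Angpt2 and Vegfa, the receptors Tek, Tie1, Kdr and Flt1, the junction proteins Pecam1 and Cdh5, and the endothelial enzyme Ace. They were chosen by a list of gene names that was put together with the log2 levels of these genes in the 4 groups already known, so every difference below describes these lungs and supports nothing beyond them. All 10 genes had a probe, 17 probes in all, out of 14468 named genes and 29269 probes that were bright enough to test. On all 14 arrays each of the 17 probes was well above background.

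RNA was taken from the lungs of male C57BL/6N mice 6 months after carbon fibre or vehicle was placed in the trachea, and each lung was read on its own one-colour array. VCF lungs (4) had received carbon fibre before recycling, CCF lungs (3) fibre after the carbonization step of recycling and RCF lungs (4) fibre after the firing step, each at 200 µg per mouse. Ctrl lungs (3) had received the phosphate-buffered saline vehicle. The question is how fibre of each form leaves the vessels of the lung after that time, read from whole-lung RNA at a single dose and a single time in males, with the age at dosing not given in the sources used here.

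As background, angiopoietin 1, made by pericytes, smooth muscle and platelets, activates the receptor Tie2 (the product of Tek) on endothelium and keeps vessels quiet and tight. Angiopoietin 2 is stored in endothelial cells, is released on activation, and often blocks Tie2 signalling where angiopoietin 1 is present, which loosens the vessel wall. Tie1 is a related receptor that modulates Tie2. VEGF-A, made in the lung largely by the alveolar epithelium, drives endothelial growth and permeability through the receptor VEGFR2 (Kdr), while VEGFR1 (Flt1) binds VEGF-A tightly and signals less. PECAM-1 and VE-cadherin (Cdh5) join endothelial cells to each other, and angiotensin-converting enzyme (Ace) sits on the surface of lung capillaries.

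A level below is the log2 processed intensity of a probe minus the 75th percentile of its array, so that 0 is that percentile, and a difference is the first-named group's mean minus the second's, with its standard error (SE) from limma. Levels of different probes are not compared. The 75th percentile ran from 724.7 to 1345.6 intensity units per array, 63.1% to 70.5% of probes were brighter than background, no spot was saturated, and the number of arrays limits the precision. The arrays lay on 4 slides, each scanned in its own session. Slides 1 and 3 held an array of every group, slide 2 held VCF, RCF and Ctrl, and slide 4 held VCF, CCF and RCF but no Ctrl. Cardiac muscle, liver, thymus and adipose transcripts varied between lungs. The mean level of 12 cardiac genes, for instance, was -1.17 in VCF replicate 4 and 3.07 in VCF replicate 1.

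None of the 17 member probes passed an adjusted p of 0.05 in any of the 7 comparisons with limma and Benjamini-Hochberg adjustment over all tested probes. Over those probes 0.0102% passed in VCF against Ctrl (3 probes), 0.00342% in the 3 fibres together against Ctrl (1 probe) and 0% in the other comparisons. At an unadjusted p under 0.05 there were 3 member probes in VCF, 2 in CCF and 1 in RCF against Ctrl, 3 in the fibres together against Ctrl, and 1 in each of CCF against VCF, RCF against VCF and RCF against CCF. Over all tested probes 8.26%, 6.59% and 5.34% were under that p in VCF, CCF and RCF against Ctrl, 6.66% with the fibres together, and 5.80%, 5.29% and 7.90% in CCF against VCF, RCF against VCF and RCF against CCF. Read at its brightest probe, the median member differed from Ctrl by 0.05 in VCF, 0.09 in CCF and -0.05 in RCF, beside medians of -0.02, -0.04 and 0.00 over the 14468 genes. Against Ctrl, 6 members were higher in VCF, 8 in CCF and 5 in RCF, beside 45.8%, 41.3% and 49.7% of the 14468 genes. The 3 comparisons share the Ctrl arrays.

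**Figure D1:**
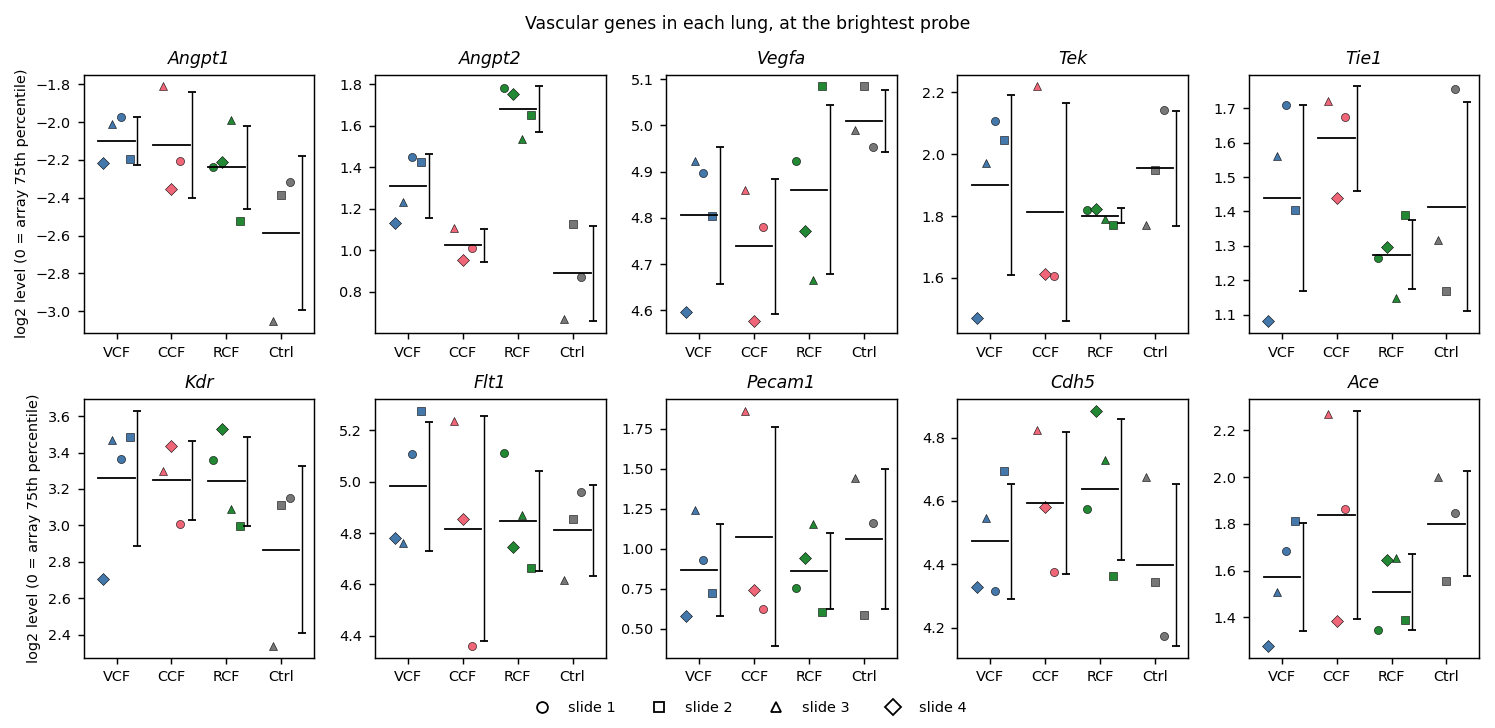
Level of the 10 genes in each of the 14 lungs (y axis, log2, 0 is the array's 75th percentile) at the brightest probe, in VCF, CCF, RCF and Ctrl lungs from left to right. Symbols mark the slide, horizontal lines the group mean and bars 1 SD. The 4 RCF lungs stand above all others for Angpt2, while every fibre group overlaps Ctrl for Tek, Tie1, Kdr, Flt1, Pecam1, Cdh5 and Ace.

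Angpt2 separated the groups most among the members. In RCF lungs it was 1.78, 1.75, 1.54 and 1.65, in VCF lungs 1.13, 1.23, 1.45 and 1.43, in CCF lungs 1.11, 0.95 and 1.01, and in Ctrl lungs 0.67, 1.13 and 0.87 (probe A_51_P201982). Every RCF lung lay above every lung of the other groups, and VCF lungs lay above Ctrl lungs narrowly, the lowest VCF and the highest Ctrl lung both at 1.13. The group means were 1.31 ± 0.15 in VCF (SD, n = 4), 1.02 ± 0.08 in CCF (n = 3), 1.68 ± 0.11 in RCF (n = 4) and 0.89 ± 0.23 in Ctrl (n = 3). In order from high to low these are RCF, VCF, CCF and Ctrl, and the gap between CCF and Ctrl was under their pooled SD. The RNA signal of this probe in RCF lungs was thus 1.73 times that in Ctrl lungs (difference 0.79, SE 0.13, adjusted p = 0.185). VCF exceeded Ctrl by 0.42 (SE 0.13, adjusted p = 0.376), and CCF by 0.14 (SE 0.14, adjusted p = 0.902). In bulk lung RNA, more cells that make Angpt2 and more RNA per such cell cannot be told apart.

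Among the fibres, RCF exceeded VCF in Angpt2 by 0.37 (SE 0.12, adjusted p = 0.794) and CCF by 0.66 (SE 0.13, adjusted p = 0.415), and CCF differed from VCF by -0.29 (SE 0.13, adjusted p = 0.860). RCF minus Ctrl was 0.91, 0.53 and 0.87 on slides 1, 2 and 3, and VCF minus Ctrl was 0.58, 0.30 and 0.57. These signs had to follow from the separation of all RCF and VCF lungs from the Ctrl lungs, so they are no further check. CCF minus Ctrl, where lungs overlapped, was 0.14 and 0.44 on slides 1 and 3. With the slide as a block the differences from Ctrl were 0.45 in VCF, 0.20 in CCF and 0.82 in RCF. Of the spread of Angpt2 over the 14 lungs, 85.2% lay between the groups and 8.10% between the slides, where the median tested probe had 22.0% and 35.1%. No value of Angpt2 changed sign under the alternatives tried, but some changed in size. Where the lungs of both groups were fully separated, leaving out lungs could not turn the sign. With normexp background correction CCF minus VCF was -0.02, CCF minus Ctrl 0.32 and RCF minus CCF 0.43, so VCF and CCF then lay at nearly the same level. Taken relative to the median of all probes with normexp, Angpt2 minus Ctrl was 0.29 in VCF, 0.54 in CCF and 0.73 in RCF. By that measure CCF lay above VCF, so the order of these groups depended on the processing. Over the alternatives the adjusted p for RCF against Ctrl ran from 0.0812 with the mean over the probes of each gene to 1.00 with normexp background correction. Angpt2 has no other probe, so that mean left its difference unchanged, and the adjustment there ran over genes instead of probes.

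Complete separation of the arrays of both groups gives a background for these patterns. Of the 10 members, 1 (Angpt2) was higher in every RCF than in every Ctrl lung, as were 4.75% of all genes, and none was lower in every RCF lung, as were 4.68%. In VCF against Ctrl, 2 members (Angpt1 and Angpt2) were higher in every lung beside 3.31% of genes, and 1 (Vegfa) was lower beside 3.25%. In CCF against Ctrl none was higher in every lung beside 3.37% of genes, and 1 (Vegfa) was lower beside 6.14%. Angpt2 was the member for which every RCF lung exceeded every VCF lung (1.57% of genes) and every CCF lung (6.90%), and every CCF lung was below every VCF lung (2.60%). Tie1 was lower in every RCF than in every CCF lung, as were 3.06% of genes. No member was lower in every RCF than in every VCF lung (1.24%) or higher in every CCF than in every VCF lung (1.23%). These shares describe the patterns that put the genes on the list and carry no test.

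Angpt1, the activating ligand of Tie2, had 2 probes, both higher on average in each fibre group. At the brighter, A_52_P160328, VCF lungs were at -2.22, -2.01, -1.97 and -2.20, CCF lungs at -1.81, -2.35 and -2.20, RCF lungs at -2.23, -2.21, -1.99 and -2.52, and Ctrl lungs at -3.05, -2.38 and -2.32. Ctrl replicate 1 was the lowest of the 14, and the other Ctrl lungs sat at the lower edge of the fibre lungs. The differences from Ctrl were 0.48 in VCF (SE 0.20, adjusted p = 0.526), 0.46 in CCF (SE 0.21, adjusted p = 0.750) and 0.35 in RCF (SE 0.20, adjusted p = 0.973). Without Ctrl replicate 1 they were 0.25, 0.23 and 0.11, and with normexp background correction 0.40, 0.09 and 0.20. On slide 3, which held that lung, the differences were 1.04, 1.24 and 1.07 for VCF, CCF and RCF, and on slide 1 they were 0.34, 0.11 and 0.08. On slide 2, which held no CCF lung, VCF minus Ctrl was 0.19 and RCF minus Ctrl -0.14, the opposite direction.

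The second Angpt1 probe, A_52_P574140, gave larger differences and another order of lungs. VCF lungs were at -1.88, -1.89, -2.65 and -3.16, CCF lungs at -2.15, -1.82 and -2.63, RCF lungs at -2.82, -1.82, -2.20 and -3.68, and Ctrl lungs at -3.24, -3.33 and -3.35. All Ctrl lungs were low, but RCF replicate 4 was lower still. The differences from Ctrl were 0.91 in VCF, 1.11 in CCF and 0.68 in RCF (SE 0.41, 0.44 and 0.41). The slides took 72.6% of the spread of this probe, with a mean of -1.84 on slide 4, which held no Ctrl lung, and -3.39 on slide 2. With the slide as a block the differences were 0.70, 0.66 and 0.46, and on slide 2 RCF minus Ctrl was -0.34. The probes of Angpt1 correlated at r = 0.53 over the 14 lungs.

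Vegfa was read by 4 probes that fell into 2 kinds. At the brightest, A_52_P638895, VCF lungs were at 4.60, 4.92, 4.90 and 4.80, CCF lungs at 4.86, 4.58 and 4.78, RCF lungs at 4.92, 4.77, 4.67 and 5.08, and Ctrl lungs at 4.99, 5.08 and 4.95. Every VCF and CCF lung lay below every Ctrl lung, and RCF replicate 4 reached the highest Ctrl value. The differences from Ctrl were -0.20 in VCF, -0.27 in CCF and -0.15 in RCF (SE 0.13, 0.14 and 0.13, adjusted p = 0.778, 0.774 and 0.993), and with normexp background correction the difference in CCF was 0.01. Slide 4 had the lowest mean, 4.65, against 4.86 to 4.99 on the slides with Ctrl, and with the slide as a block the differences were -0.15, -0.18 and -0.09. Within slide 2, RCF and Ctrl differed by 0.0003. A second probe of the same annotated transcript, A_51_P482552, gave -0.19, -0.25 and -0.12 and followed the first (r = 0.70).

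The other 2 Vegfa probes, annotated to another transcript of the gene, ran the opposite way. A_52_P249424 was at 1.59 ± 0.25 in VCF, 1.85 ± 0.44 in CCF, 1.49 ± 0.47 in RCF and 1.39 ± 0.29 in Ctrl (SD), which gives differences from Ctrl of 0.20, 0.46 and 0.10. A_52_P229471 differed by 0.15, 0.44 and 0.24. These 2 followed each other (r = 0.83) and not the brightest probe (r = -0.49 and -0.32 for A_52_P249424 and A_52_P229471). Slide 4 was again apart for A_52_P249424, at a mean of 2.06 against 1.22 to 1.54 elsewhere, and with the slide as a block its differences were 0.05, 0.20 and -0.05. Averaged over the 4 probes, Vegfa differed from Ctrl by -0.01 in VCF, 0.09 in CCF and 0.02 in RCF, so the lower Vegfa in fibre lungs was seen at the probes of the first kind.

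**Figure D2:**
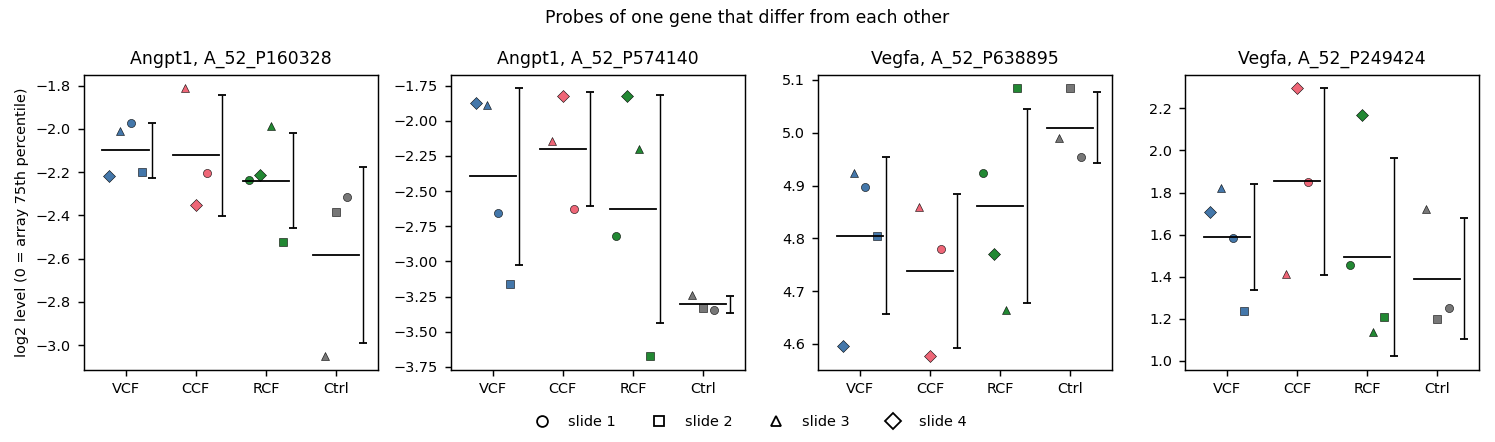
Level (y axis, log2, 0 is the array's 75th percentile) of 2 Angpt1 and 2 Vegfa probes in each lung, in VCF, CCF, RCF and Ctrl lungs from left to right, with symbols for the slide, group means as lines and 1 SD as bars. Slide 4, marked by diamonds, has the highest mean for A_52_P574140 and A_52_P249424 and the lowest for A_52_P638895, with single lungs of other slides above some of its lungs for A_52_P249424, and it held no Ctrl lung.

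The RefSeq promoter table (build GRCm38.p6, 250 bases before to 50 after each start) lists 2 start windows for Vegfa, which are shown because the probes of its annotated transcripts disagreed. Both lie on the minus strand, at chr17:46032328-46032627 and chr17:46025114-46025413, and the second is downstream of the first. Capitals mark the core ACGTG of the hypoxia response element, searched on both strands, so that it also reads CACGT.
Vegfa window 1: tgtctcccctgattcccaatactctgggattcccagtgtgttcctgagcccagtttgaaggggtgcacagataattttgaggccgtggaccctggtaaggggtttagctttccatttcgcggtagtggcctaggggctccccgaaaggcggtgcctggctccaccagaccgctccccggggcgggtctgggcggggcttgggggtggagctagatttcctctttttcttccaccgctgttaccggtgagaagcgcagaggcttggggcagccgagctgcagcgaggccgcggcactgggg
Vegfa window 2: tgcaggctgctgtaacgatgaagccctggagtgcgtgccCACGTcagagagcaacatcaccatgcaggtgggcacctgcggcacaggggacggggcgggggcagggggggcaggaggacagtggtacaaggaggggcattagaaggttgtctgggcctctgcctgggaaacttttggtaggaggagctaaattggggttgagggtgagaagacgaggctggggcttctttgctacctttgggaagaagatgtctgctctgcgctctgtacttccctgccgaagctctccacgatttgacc
The first window holds 0 matches and the second 1, where 19.6% of the 32851 windows of this length in the table hold at least 1. A match is a description of these letters, and which start each probe reads is not given in the sources used here.

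Tek, the Tie2 receptor on which both angiopoietins act, did not separate the groups. VCF lungs were at 1.47, 1.97, 2.11 and 2.04, CCF lungs at 2.22, 1.61 and 1.61, RCF lungs at 1.82, 1.82, 1.79 and 1.77, and Ctrl lungs at 1.77, 1.95 and 2.14 (A_51_P130374). The RCF lungs lay close together, inside the range of the other groups. The differences from Ctrl were -0.05 in VCF, -0.14 in CCF and -0.15 in RCF, with 95% intervals of -0.45 to 0.34, -0.57 to 0.28 and -0.55 to 0.24.

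Tie1 was highest in CCF lungs at 1.61 ± 0.15 (SD, n = 3), with VCF at 1.44 ± 0.27 (n = 4), RCF at 1.27 ± 0.10 (n = 4) and Ctrl at 1.41 ± 0.30 (n = 3, A_51_P177171). No neighbouring pair in that order differed by more than its pooled SD. The CCF lungs were at 1.72, 1.44 and 1.68 and each lay above all RCF lungs, which were at 1.26, 1.30, 1.15 and 1.39. RCF minus CCF was -0.34 (SE 0.17, adjusted p = 0.662), the lowest difference of any member at its brightest probe in that comparison, while the other probes A_52_P574140 of Angpt1, A_52_P249424 of Vegfa and A_52_P72297 of Ace were lower still at -0.43, -0.36 and -0.34.

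Kdr, the main signalling receptor for VEGF-A, was higher on average in every fibre group by nearly the same amount. VCF lungs were at 2.71, 3.47, 3.37 and 3.49, CCF lungs at 3.30, 3.44 and 3.01, RCF lungs at 3.36, 3.53, 3.09 and 2.99, and Ctrl lungs at 2.34, 3.11 and 3.15 (A_51_P316553, the mean of 10 spots). Ctrl replicate 1 was the lowest of all and VCF replicate 1 the next, while the other 2 Ctrl lungs lay among the fibre lungs. The differences from Ctrl were 0.39 in VCF, 0.38 in CCF and 0.37 in RCF (SE 0.24, 0.26 and 0.24, adjusted p = 0.766, 0.825 and 0.991). Without Ctrl replicate 1 they were 0.13, 0.12 and 0.11. On slide 1, which did not hold that lung, they were 0.22, -0.14 and 0.21. On slide 2, which did not hold it either and had no CCF lung, VCF minus Ctrl was 0.37 and RCF minus Ctrl -0.12.

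Flt1, which binds VEGF-A without much signalling, showed no ordered difference at either of its probes. At A_51_P398723 the means were 4.98 ± 0.25 in VCF (n = 4), 4.82 ± 0.44 in CCF (n = 3), 4.85 ± 0.19 in RCF (n = 4) and 4.81 ± 0.18 in Ctrl (SD, n = 3). The CCF lungs alone ran from 4.36 to 5.24, which covers every other lung but VCF replicate 4. Differences from Ctrl were 0.17, 0.01 and 0.04 in VCF, CCF and RCF at this probe, and 0.16, 0.22 and 0.06 at A_52_P520859 (r = 0.73 between the probes). The interval for RCF against Ctrl at the first probe was -0.41 to 0.48.

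Tek and Flt1 were the member pair with listed promoters that moved together most across lungs (r = 0.67), and their windows are shown for that reason. Tek lies at chr4:94739039-94739338 on the plus strand and Flt1 at chr5:147725962-147726261 on the minus strand, on GRCm38.p6 per RefSeq. Capitals mark AGGAAG, a core of the binding sites of ETS factors, which drive many endothelial genes, searched on both strands, so that it also reads CTTCCT.
Tek: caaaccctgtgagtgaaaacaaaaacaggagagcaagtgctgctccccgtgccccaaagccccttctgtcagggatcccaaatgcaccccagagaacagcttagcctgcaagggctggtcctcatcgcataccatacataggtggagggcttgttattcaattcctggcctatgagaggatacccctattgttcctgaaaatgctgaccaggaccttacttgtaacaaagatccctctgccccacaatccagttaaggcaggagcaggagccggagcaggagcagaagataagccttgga
Flt1: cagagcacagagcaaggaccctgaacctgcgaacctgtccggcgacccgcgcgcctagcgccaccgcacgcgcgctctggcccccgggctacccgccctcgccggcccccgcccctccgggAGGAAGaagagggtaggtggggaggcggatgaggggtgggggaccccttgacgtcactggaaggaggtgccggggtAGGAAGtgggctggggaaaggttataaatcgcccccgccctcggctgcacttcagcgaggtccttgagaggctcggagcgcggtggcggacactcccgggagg
The Flt1 window holds 2 matches and the Tek window 0, and 35.4% of the 32851 windows hold at least 1. A search for the TATA box, TATAAA on either strand, found 1 match in Flt1 and 0 in Tek, where 13.6% of windows hold it. Tie1 holds 2 ETS cores, Kdr 0 and Ace 2 in the first of its 2 windows. Of the 10 members, 6 have windows in the table, 8 windows in all, and Angpt1, Angpt2, Pecam1 and Cdh5 are not among them. No match says only that these letters are not in this window.

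The junction genes also overlapped between groups. Cdh5, which encodes VE-cadherin, was at 4.47 ± 0.18 in VCF (n = 4), 4.59 ± 0.22 in CCF (n = 3), 4.64 ± 0.22 in RCF (n = 4) and 4.40 ± 0.26 in Ctrl (SD, n = 3, A_52_P248604). Its differences from Ctrl were 0.07, 0.20 and 0.24 in VCF, CCF and RCF, where the SD within groups was 0.22, and at A_51_P309056 they were -0.09, 0.06 and -0.04. The direction for VCF and RCF thus depended on the probe. With normexp background correction CCF minus Ctrl at A_52_P248604 was 0.48.

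Pecam1 varied more by slide than by group. VCF lungs were at 0.58, 1.24, 0.93 and 0.72, CCF lungs at 1.86, 0.74 and 0.62, RCF lungs at 0.75, 0.94, 1.15 and 0.60, and Ctrl lungs at 1.44, 0.58 and 1.16 (A_51_P400868, the mean of 10 spots). The highest lung of every group lay on slide 3. The slides took 71.5% of its spread and the groups 7.54%, with a mean of 1.42 on slide 3 against 0.64 to 0.87 on the others. With the slide as a block the differences from Ctrl were -0.14 in VCF, -0.03 in CCF and -0.15 in RCF.

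Ace, the capillary enzyme that makes angiotensin II and breaks down bradykinin, was at 1.57 ± 0.23 in VCF (n = 4), 1.84 ± 0.44 in CCF (n = 3), 1.51 ± 0.16 in RCF (n = 4) and 1.80 ± 0.22 in Ctrl (SD, n = 3, A_52_P68028). VCF minus Ctrl was -0.23 (SE 0.20), CCF minus Ctrl 0.04 (SE 0.22) and RCF minus Ctrl -0.29 (SE 0.20), with adjusted p of 0.876, 0.987 and 0.991. Lungs of all groups overlapped, with CCF replicate 1 highest at 2.27. A_52_P72297 gave -0.46, -0.03 and -0.37 and followed the first probe closely (r = 0.92).

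**Figure D3:**
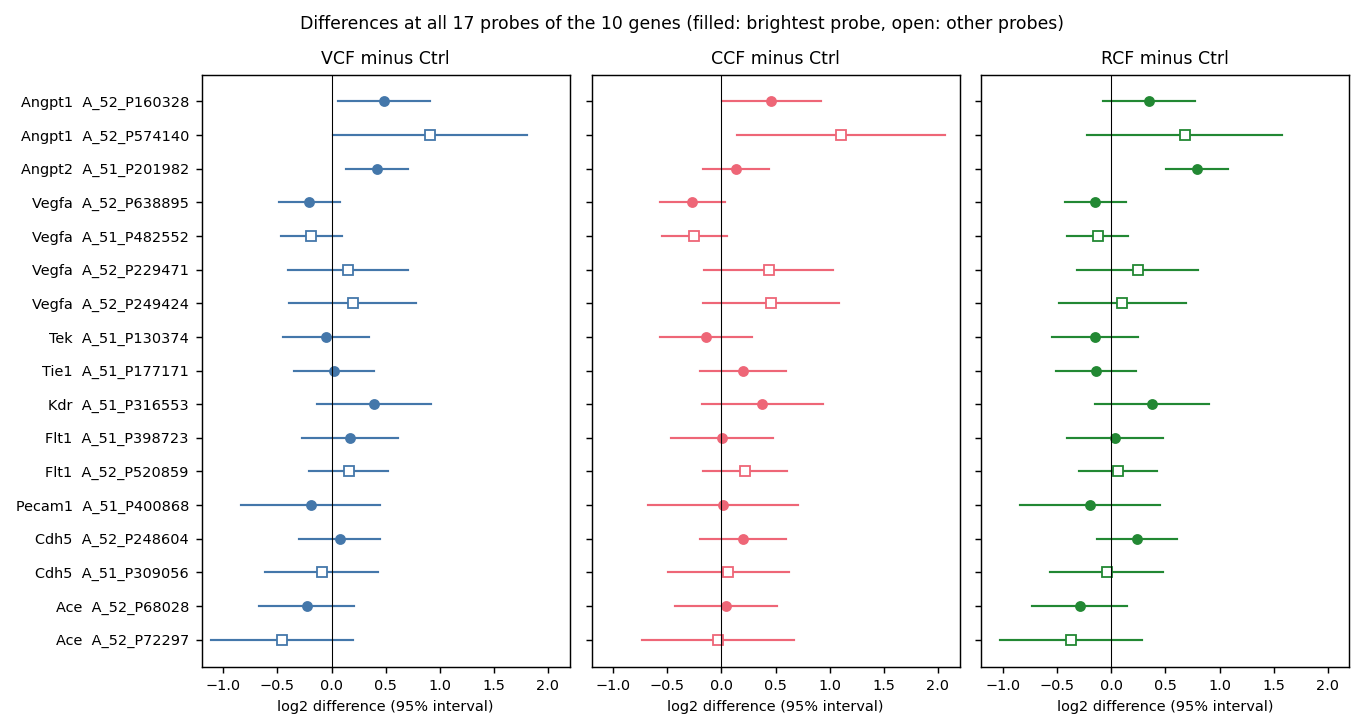
Differences from Ctrl (x axis, log2, lines are 95% intervals) at all 17 probes of the 10 genes, for VCF, CCF and RCF from left to right. Filled circles are the brightest probe of a gene and open squares the others. Angpt2 in RCF, at 0.79, has the interval farthest from 0, and the Vegfa probes lie on both sides of 0.

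Across the 14 lungs the members did not move as a single block. Of 45 pairs, none passed an adjusted p of 0.05 for Pearson's r or Spearman's rho in a permutation test, and the lowest adjusted p for r was 0.152. Pecam1 and Ace gave r = 0.73 and rho = 0.56 (permutation p = 0.00338 and 0.0390, adjusted p = 0.152 and 0.398). That relation rested on the 2 lungs farthest from the Pecam1 median, without which r was 0.33. Over all lungs r for this pair was 0.72 both around the group means and around the slide means. Tek and Flt1 gave r = 0.67 and rho = 0.68 (permutation p = 0.00848 and 0.00912, adjusted p = 0.191 and 0.398), r = 0.66 without the 2 farthest lungs, and r = 0.71 both around the group means and around the slide means. Angpt1 and Kdr gave r = 0.67 and rho = 0.42 (permutation p = 0.0154 and 0.133, adjusted p = 0.232 and 0.398), and r was 0.26 without the 2 farthest lungs, among them Ctrl replicate 1. With all lungs r for Angpt1 and Kdr was 0.55 around the group means and 0.72 around the slide means. Angpt2 and its receptor Tek gave r = 0.05 over all lungs, 0.58 around the group means and 0.09 around the slide means. Angpt2 and Vegfa gave r = 0.02 over all lungs, 0.48 around the group means and -0.06 around the slide means.

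**Figure D4:**
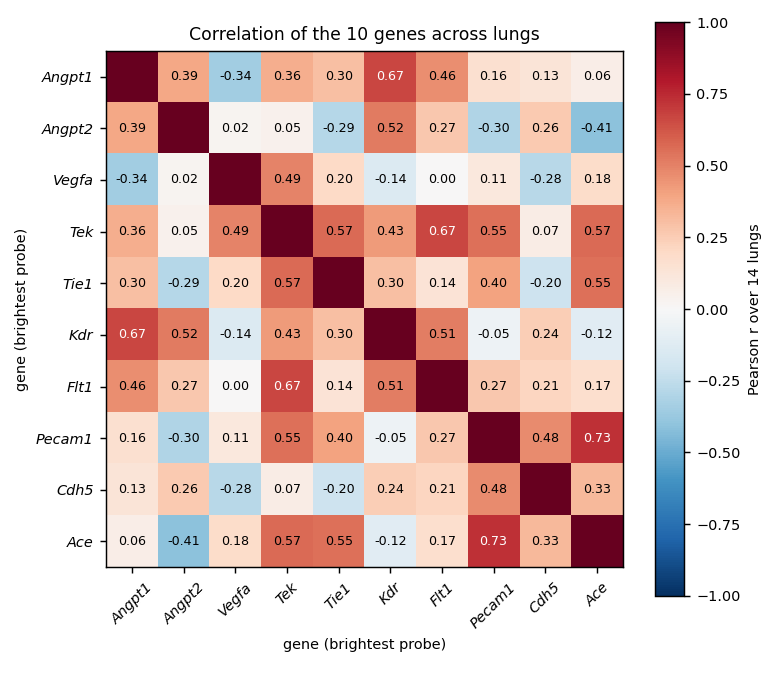
Pearson correlation (colour scale and printed values) between the 10 genes over the 14 lungs, at the brightest probe of each gene on both axes. Pecam1 with Ace (0.73), Tek with Flt1 (0.67) and Angpt1 with Kdr (0.67) are the highest, and Angpt2 with Ace (-0.41) is the lowest.

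The genes most like each member over the 14 lungs, by Pearson's r among the 14468 genes, are given as a description, since the highest of that many values is large in any gene. For Angpt2 they were Wnt2 (0.92), Cyp2j9 (0.91) and Cnrip1 (0.88). For Angpt1 they were Ptprt (0.90), Mertk (0.85) and Mylk (0.81), and for Vegfa Cep152 (0.91), Zfp846 (0.89) and Dolpp1 (0.89). Tek was most like Usp8 (0.89), Tie1 like Ccnt1 (0.90), Kdr like Vezf1 (0.93) and Flt1 like Itpr2 (0.90). Pecam1 was most like Nxf1 (0.95), Cdh5 like Ece1 (0.92) and Ace like Col4a2 (0.93).

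The wider pathways were described from lists of 11 to 33 tested genes, chosen with earlier results of these data known, and 0 of their genes passed in any comparison. Of 19 other genes of the angiopoietin and VEGF families, 9 were higher in VCF, 8 in CCF and 9 in RCF than in Ctrl, with medians of 0.00, -0.01 and -0.03. Angpt4, a further Tie2 ligand, was at -5.28 ± 0.36 in VCF, -5.33 ± 0.03 in CCF, -5.13 ± 0.36 in RCF and -5.80 ± 0.25 in Ctrl (SD), differences of 0.52, 0.47 and 0.67 (SE 0.22, 0.24 and 0.22). Ptprb, the vascular phosphatase that opposes Tie2, differed by 0.42, 0.59 and 0.30 (SE 0.37, 0.39 and 0.37). CCF replicate 2 and RCF replicate 2, both on slide 4, were highest at 5.99 and 5.98, and RCF replicate 4 was lowest at 4.09. Nrp1, a co-receptor for VEGF-A, differed by 0.15, 0.45 and 0.12, and Angptl4, a lipoprotein lipase inhibitor, by 0.15, -0.29 and -0.13.

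More endothelial genes were higher than lower in each fibre group, none of which passed, and with normexp background correction the VCF count turned to 15 of 33. Of the 33 tested, 19 were higher in VCF, 22 in CCF and 25 in RCF than in Ctrl, with medians of 0.09, 0.07 and 0.10 beside 45.8%, 41.3% and 49.7% of all genes higher. At an unadjusted p under 0.05, 4, 2 and 8 were higher, beside 2.63%, 2.52% and 3.08% of all genes, and 1, 0 and 1 lower, beside 2.79%, 3.12% and 3.03%. Their mean level ran from 3.31 to 3.57 in VCF, 3.33 to 3.51 in CCF, 3.38 to 3.50 in RCF and 3.20 to 3.42 in Ctrl lungs. Gja5, the arterial gap junction gene, differed from Ctrl by 0.82, 0.80 and 0.67 in VCF, CCF and RCF (SE 0.30, 0.33 and 0.30, adjusted p = 0.465, 0.728 and 0.933), and Ctrl replicate 1, at 1.61, lay among the fibre lungs. Klf2, induced by laminar flow, differed by 0.22, 0.06 and 0.64 (SE 0.28, 0.30 and 0.28). Ctrl replicate 1, at 6.97 for Klf2, lay among the RCF lungs at 6.89 to 7.06. Erg, an ETS factor of endothelium, differed by 0.61, 1.06 and 0.28 (SE 0.49, 0.52 and 0.49). For Erg the VCF, CCF and RCF lungs of slide 4, which held no Ctrl, were at -3.25, -2.74 and -3.08. VCF replicate 2 and CCF replicate 3, on other slides, were at -3.14 and -3.11. Part of this list also stands in the other lists (Apln and Aplnr are capillary genes).

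Among 12 capillary genes, 7 were higher in VCF, 6 in CCF and 5 in RCF. Apln, the apelin ligand of growing endothelium, was at 1.83, 2.05, 2.35 and 2.24 in VCF, 2.12, 1.67 and 2.01 in CCF, 2.19, 2.02, 2.03 and 2.18 in RCF, and 1.62, 1.73 and 1.57 in Ctrl. VCF and RCF lungs all lay above the Ctrl lungs, and CCF replicate 2 lay among them (differences 0.48, 0.30 and 0.47, adjusted p = 0.367, 0.780 and 0.664). Of all genes, 3.31% were higher in every VCF and 4.75% in every RCF than in every Ctrl lung. Apln was named for the wide range of its group means, which favours such separation. The apelin receptor gene Aplnr differed by 0.60, 0.46 and 0.70 (SE 0.25, 0.27 and 0.25). Car4, a marker of the gas-exchange capillary cell, also stands on the alveolar macrophage list, and whole-lung RNA does not tell these cells apart. Its differences were -0.19, -0.12 and -0.36, and those of Fibin 0.19, -0.15 and 0.10.

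Notch genes of vessels (12) were higher than Ctrl in 7 cases in VCF, 5 in CCF and 9 in RCF. Notch1, a receptor of sprouting control, was at -1.96 ± 0.20 in VCF, -1.30 ± 0.28 in CCF, -2.19 ± 0.36 in RCF and -2.49 ± 0.08 in Ctrl (SD), and every VCF and CCF lung lay above every Ctrl lung. Such separation held for 3.31% of all genes in VCF and 3.37% in CCF, and Notch1 was named for the wide range of its group means. The differences of Notch1 were 0.53, 1.19 and 0.30 (SE 0.19, 0.21 and 0.19, adjusted p = 0.463, 0.474 and 0.991). The Notch ligand Dll1 differed by 0.61, 0.44 and 0.39, and the Notch targets Hes1 and Nrarp by 0.27, 0.36 and 0.25 and by -0.08, -0.14 and 0.32.

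Of 19 oxygen-sensing genes, 12 were higher in VCF, 11 in CCF and 10 in RCF, with medians of 0.07, 0.04 and 0.06. Adm, adrenomedullin, a peptide that dilates vessels and strengthens their barrier, was at 0.24, -0.59, -0.10 and 0.12 in RCF lungs and at -0.74, -0.82 and -1.47 in Ctrl lungs. Each RCF lung exceeded each Ctrl lung, with a difference of 0.93 (SE 0.23, adjusted p = 0.436), while VCF and CCF differed by 0.23 and 0.22. The same separation held for 4.75% of all genes, and Adm was named for the wide range of its group means. Car9, a carbonic anhydrase induced by low oxygen, differed by -0.40, -0.29 and -0.33, and the glycolytic enzyme Hk2 by 0.42, 0.34 and 0.07. Every VCF and every RCF lung lay below every Ctrl lung for Car9, as for 3.25% and 4.68% of all genes. Car9 was named by the same rule as Adm. Ddit4 differed by 0.14, -0.07 and 0.40.

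Of 11 angiotensin and kinin genes beside Ace, 7 were higher in VCF, 5 in CCF and 6 in RCF than in Ctrl. The angiotensin II receptor gene Agtr1a differed from Ctrl by 0.08, -0.01 and 0.29, and the aminopeptidase gene Rnpep by -0.31, -0.02 and -0.14 (SE 0.15, 0.16 and 0.15). The precursor Agt differed by 0.21, 0.49 and 0.38 (SE 0.37, 0.40 and 0.37) and the peptidase Mme by -0.02, -0.29 and 0.07. In RCF the difference of each of these genes was within 2 SE of 0, while Rnpep in VCF was just beyond 2 SE (adjusted p = 0.650).

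**Figure D5:**
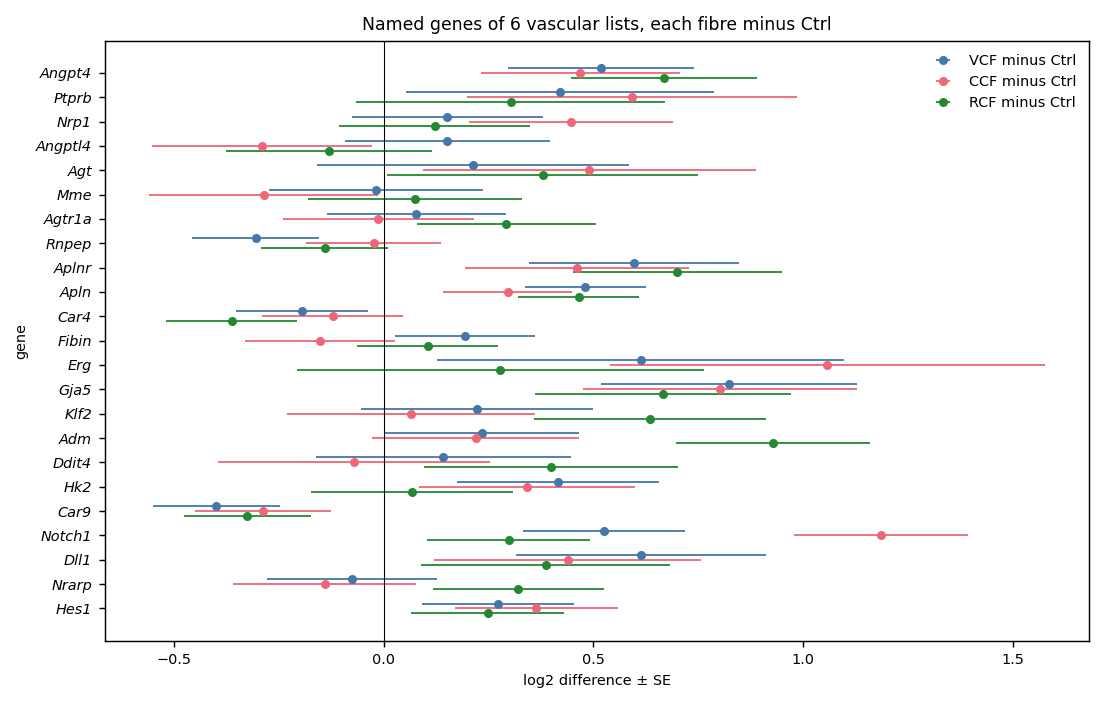
Differences from Ctrl (x axis, log2, bars are 1 SE) of the 23 genes named from 6 vascular lists (y axis), in VCF, CCF and RCF. Notch1 in CCF (1.19) and Adm in RCF (0.93) lie far from the other fibre groups, and Car9, Car4 and Rnpep lie below 0 in all 3.

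Markers of other cells differed from Ctrl in the same direction as some of these genes when counted by group. Their relation to the members across single lungs was not computed, and their part in the results was not tested. The 9 platelet genes were all higher in each fibre group than in Ctrl, as Angpt1 was on average, and their mean level ran from -0.12 to 0.89 in VCF, -0.35 to 1.08 in CCF, -0.56 to 0.43 in RCF and -1.93 to 0.17 in Ctrl lungs. All 8 red cell genes were higher too, though 5 of 8 in CCF with normexp. Cardiac muscle genes were higher in 11, 11 and 12 of 12 cases in VCF, CCF and RCF, and fibroblast genes in 10, 11 and 9 of 12. Platelet genes were thus not alone in this direction. Of all genes, 45.8%, 41.3% and 49.7% were higher. The 11 pericyte genes were higher in 11 cases in VCF, 7 in CCF and 10 in RCF, with levels from -0.18 to 0.08 in VCF, -0.16 to 0.13 in CCF, -0.30 to 0.17 in RCF and -0.43 to -0.24 in Ctrl lungs. Smooth muscle genes were higher in 8 of 9 cases in each fibre group, and alveolar macrophage genes lower in 12, 12 and 13 of 13. With normexp, smooth muscle genes were higher in 6, 9 and 9 of 9 cases, and macrophage genes were higher in 1, 3 and 0 of 13. In CCF, 5 of 13 macrophage genes then lay above the median of all probes, -0.23. Prox1 of the lymphatic list was not well above background on any VCF or CCF array, and no platelet or pericyte gene was below background throughout a group.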

How the data were processed

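The authors deposited scanner files that hold intensity values per spot (Agilent Feature Extraction 10.7.3.1, background-subtracted, per the file headers), and a table deposited by the authors on the log2 scale, used as an alternative, with 27496 probes and 0 columns of other samples. Levels are log2 intensity minus the array's 75th percentile. Outlier spots were left out, spots of a probe averaged, and 29269 of 41174 probes tested (well above background on at least 3 of 14 arrays). Names came from RefSeq transcripts on GRCm38.p6; 24844 probes matched 1 symbol. All groups entered 1 limma fit (3.58.1, R 4.3.3; 10 residual and 2.39 prior degrees of freedom), two-sided, with Benjamini-Hochberg adjustment. Correlations used 100000 permutations. The steps were tested on simulated data.

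The members and the 21 gene lists were chosen with earlier results of these data known, and 1 listed gene is not reported here. A gene is read at its brightest probe (highest mean level). Named genes are the 10 members, the 4 genes of each vascular list whose group means range most, and the 3 genes most correlated with each member. Replicates are separate animals per the labels. Replicate numbers did not pair lungs (19 same-numbered pairs, mean r 0.01, from -0.37 to 0.35), whereas lungs of a slide correlated (mean r 0.17). Alternatives were normexp (offset 50, on median signals), quantile normalization, the deposited table, other filters, slide or replicate block, fewer groups or arrays, and the mean over probes. Figures were drawn with matplotlib.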

Additional observations from a re-analysis of the deposited data

Results flagged for a closer look

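Of 34 sets of 4 lungs examined (17 probes in the VCF and RCF groups), 2 held a lung far from the others of its group by Dixon's test, and chance flags about 1 in 20. Kdr was 2.71 in VCF replicate 1, where the other VCF lungs were at 3.37 to 3.49 (A_51_P316553). Vegfa was 3.66 in RCF replicate 4 at A_51_P482552, where the other RCF lungs were at 3.38 to 3.41. Groups of 3 were not examined in this way.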

How the results depend on the processing

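Under all 23 settings that give counts, 0 of the 17 member probes passed in each of the 7 comparisons. The counts over all probes moved between few calls. In VCF against Ctrl, where 3 passed, there were 0 with normexp, 0 with quantile normalization, 6 in the authors' deposited table, 5 without the filter, 1 with the slide as a block, 1 with only the groups compared and 0 without the 4 arrays known to be high in liver, thymus or adipose genes (VCF replicate 1, RCF replicate 1 and CCF replicates 2 and 3). For the fibres together, where 1 passed, there were 2 without the filter and 0 with normexp, with quantile normalization, with probes above background on all 14 arrays, with the slide as a block and without the 4 arrays. RCF against Ctrl had 1 without the filter and RCF against VCF 1 with the slide as a block. With the replicate block, 6 probes passed in VCF against Ctrl and 0 with the fibres together, and no other count changed. Leaving out each array in turn gave 0 to 16 in VCF against Ctrl (16 without CCF replicate 1), 0 to 1 in CCF, 0 to 10 in RCF (10 without CCF replicate 1), 0 to 12 for the fibres together (12 without CCF replicate 3), 0 to 1 in CCF against VCF, 0 to 1 in RCF against VCF and 0 to 3 in RCF against CCF. The causes were not tested.

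The members' differences moved by more than the SD within groups in 12 of 70 cases with normexp, 16 of 70 without the 4 arrays, 7 of 70 with the mean over probes and 68 of 180 within a slide, where each value sets single lungs against each other. With normexp the median of all probes in CCF minus Ctrl was -0.23, against -0.01 with the main setting, and Angpt2, Angpt1 and Vegfa in CCF stood at 0.54, 0.32 and 0.24 relative to it. Kdr and Cdh5 in CCF stood farther from it, at 0.74 and 0.71. In VCF, where that median was 0.05, Angpt2 stood at 0.29. Leaving out an array changed no member's difference by that much, and turned the sign in 59 of 980 cases. Angpt2 turned its sign in 0 of 186 cases, with RCF minus Ctrl between 0.53 and 0.91. Many of these cases could not turn it. Other filters and fewer groups leave a difference as it was. Where the lungs of both groups were fully separated, leaving out a lung or comparing within a slide keeps the sign. Without the 4 arrays CCF is a single lung, assumed to vary like the other groups. All member probes were above background on all 14 arrays.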
